A study of Mus musculus with 2 samples.

Results

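The 10 genes described here encode the enzymes that build fatty acids from citrate, lengthen them and place double bonds in them, together with the transcription factor gene that controls many of them. They are Acly, Acaca, Fasn, Scd1, Scd2, Elovl1, Elovl5, Elovl6, Fads2 and Srebf1. Each symbol was matched to 1 Ensembl gene identifier in the gene tables, and all 10 were found among 43346 gene entries with an Ensembl identifier. Polyadenylated RNA was measured by single-end sequencing in CH12.LX, an immortalized B cell lymphoma line from a female mouse per the labels, of the strain B10.H-2aH-4bp/Wts. The 2 libraries are biological replicates 1 and 2 of the line, for which no treatment is named, with 22996547 and 25715408 expected counts, and the labels give them separate biosamples. No second condition exists, so the values are levels in 1 line and differences between its 2 libraries.

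Cells make fatty acids in the cytosol from acetyl-CoA, which ATP citrate lyase (Acly) splits from citrate. Acetyl-CoA carboxylase (Acaca) turns it into malonyl-CoA, and fatty acid synthase (Fasn) joins these units into palmitate. Elongases of the Elovl family then lengthen the chain, stearoyl-CoA desaturases (Scd) make it monounsaturated, and Fads desaturases act on polyunsaturated chains. SREBP-1, the product of Srebf1, is a membrane-bound transcription factor that is cut free to activate genes of this pathway, and dividing lymphocytes use the pathway to supply membrane lipid.

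CH12.LX expressed all 10 genes at 1 TPM (a level corrected for transcript length and library size) or more in both libraries, against 48.0% of 21474 protein-coding genes. Their levels were uneven. Scd2, Fasn, Acly and Scd1 lay above 100 TPM in both libraries, Srebf1, Elovl1, Elovl5 and Acaca between 41.74 and 110.47 TPM, and Elovl6 and Fads2 under 4 TPM. The median over the 10 genes was 87.8 TPM in replicate 1 and 84.9 TPM in replicate 2, whereas the median of all protein-coding genes was 0.760 TPM in each and that of the detected ones 21 TPM over both libraries. Their share of all counts came to 0.307% and 0.356% in replicates 1 and 2.

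The line showed the markers of its label. The B cell markers Cd79a, Cd79b, Ms4a1, Pax5 and Ebf1 were detected, with a summed 1122 TPM in replicate 1 and 1225 TPM in replicate 2. None of 5 adipocyte and none of 5 hepatocyte markers reached 1 TPM in both libraries, and the sums were 0.560 and 0.830 TPM for adipocyte and 0.120 and 0.310 TPM for hepatocyte markers. Lep, Alb, Ttr and Serpina1a had 0 counts in both libraries. Of 4 myeloid markers Adgre1 and Itgam were detected, and of 4 T cell markers Cd3d was, with sums over each list of at most 4.13 TPM.

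**Figure D1:**
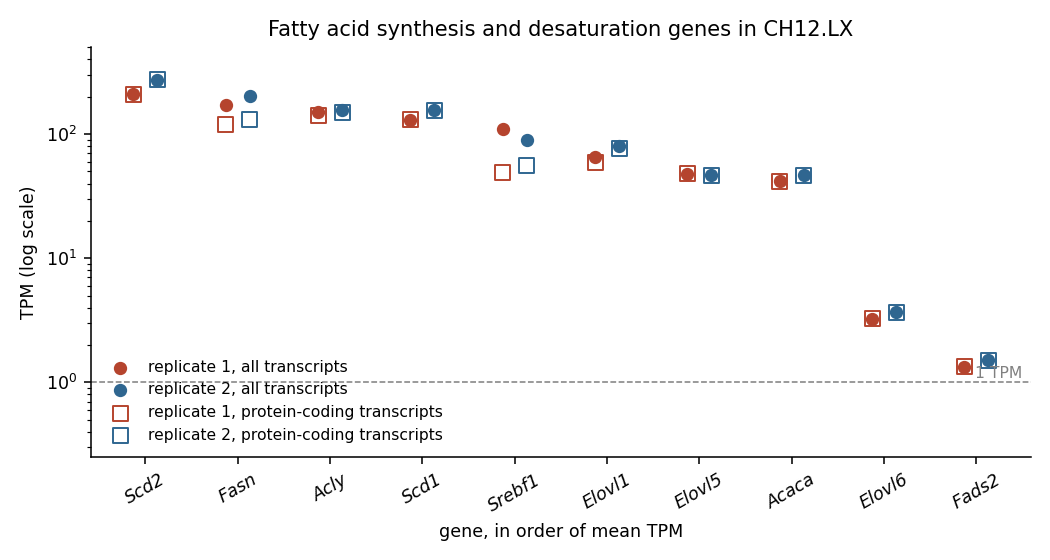
Level of each of the 10 genes in TPM on a log axis, with replicate 1 left of replicate 2. Filled points sum all annotated transcripts of a gene and open squares its protein-coding transcripts; the 2 differ most for Srebf1, where the squares sit at 48.7 and 56.1 TPM and the points at 110.47 and 89.20 TPM.

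The enzymes of the cytosolic route were high throughout, with the carboxylase the lowest of them. Acly (chr11:100476353-100528000, minus strand, mm10) stood at 151.65 TPM in replicate 1 and 156.81 TPM in replicate 2, a mean of 154 ± 3.65 (SD, n = 2). Fasn (chr11:120805846-120824547, minus strand) had 170.44 and 203.79 TPM in replicates 1 and 2, a mean of 187 ± 23.6. Acaca (chr11:84129672-84401651, plus strand) had 41.74 and 46.89 TPM, a mean of 44.3 ± 3.64. Fasn thus stood 4.08 times and 4.35 times as high as Acaca in replicates 1 and 2. Among protein-coding genes, Fasn lay at percentile 96.8, Acly at 95.8 and Acaca at 85.6.

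Part of the Fasn level lay on short transcripts that encode no protein. Fasn-201, the 9587-base coding transcript, held 119.08 TPM in replicate 1 and 131.63 TPM in replicate 2, which was 69.9% and 64.6% of the gene's TPM. The remainder was on 2 retained-intron transcripts, of which Fasn-202 is 762 bases long and held 39.28 and 62.28 TPM. That transcript had 464.58 of 19274 expected counts in replicate 1 and 818.99 of 23877 in replicate 2, or 2.41% and 3.43%. TPM divides counts by transcript length, so few reads on a short transcript make a large share. Over coding transcripts alone, Fasn stood below Acly, at 0.847 and 0.875 times its level in replicates 1 and 2. By the same measure Fasn stood 2.86 and 2.81 times as high as Acaca.

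By counts, Acaca was read almost wholly from 1 coding transcript. Acaca-201, which starts at position 84195438, held 99.2% and 98.8% of the Acaca counts in replicates 1 and 2. Acaca-202, which starts at 84173122 and has the same coding length of 7035 bases, had 0 expected counts in both libraries. The 431-base fragment Acaca-206, which starts at 84179831, held 14.64% and 16.76% of the gene's TPM on 0.742% and 0.891% of its counts. Of the 36-base words of the Acaca transcripts, 67.5% occurred in no other gene. Most of the shared ones, 5307, also occur in Gm5182 (chr12:10152142-10158233), which was not analysed here. The deposited counts of Acaca were whole numbers with a posterior SD of 0 in both libraries. None of its reads were thus split with another deposited entry. Gm5182 was not found under its Ensembl identifier among these entries, so this cannot tell whether reads from Gm5182 were counted as Acaca. The Acaca paralog Acacb, the carboxylase linked to the control of fatty acid oxidation, had 13.19 and 12.05 TPM. Only 0.63 and 0.44 TPM of that lay on coding transcripts of Acacb. Acaca held 76.0% and 79.6% of the TPM of both genes in replicates 1 and 2, and 98.5% and 99.1% of the coding TPM.

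Acly was spread over forms that differ by a 30-base exon (chr11:100503160-100503189) and in part by their starts. The exon is shown because it separates the transcripts on which nearly all Acly counts lay. It is in capitals, with 15 bases of each neighbouring exon in lower case, 5′ to 3′ from the GENCODE M21 transcript.
Acly exon: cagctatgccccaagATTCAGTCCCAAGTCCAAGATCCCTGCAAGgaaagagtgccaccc
Acly-203 holds the exon and has a coding length of 3303 bases, whereas Acly-201 and Acly-207 lack it and have 3273. Acly-203 and Acly-201 start at position 100528000, whereas Acly-207 starts downstream at 100523598. The form with the exon had 86.53 TPM in replicate 1 and 119.93 TPM in replicate 2. Acly-207 had 47.79 and 26.55 TPM, and Acly-201 had 0 expected counts in both. The form with the exon was thus 64.4% and 81.9% of the TPM of these 3 transcripts, a mean of 73.1% ± 12.3 (SD, n = 2). It was the larger part in both libraries, and larger in replicate 2. Since Acly-207 differs in its start too, this share cannot be assigned to the exon alone.

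**Figure D2:**
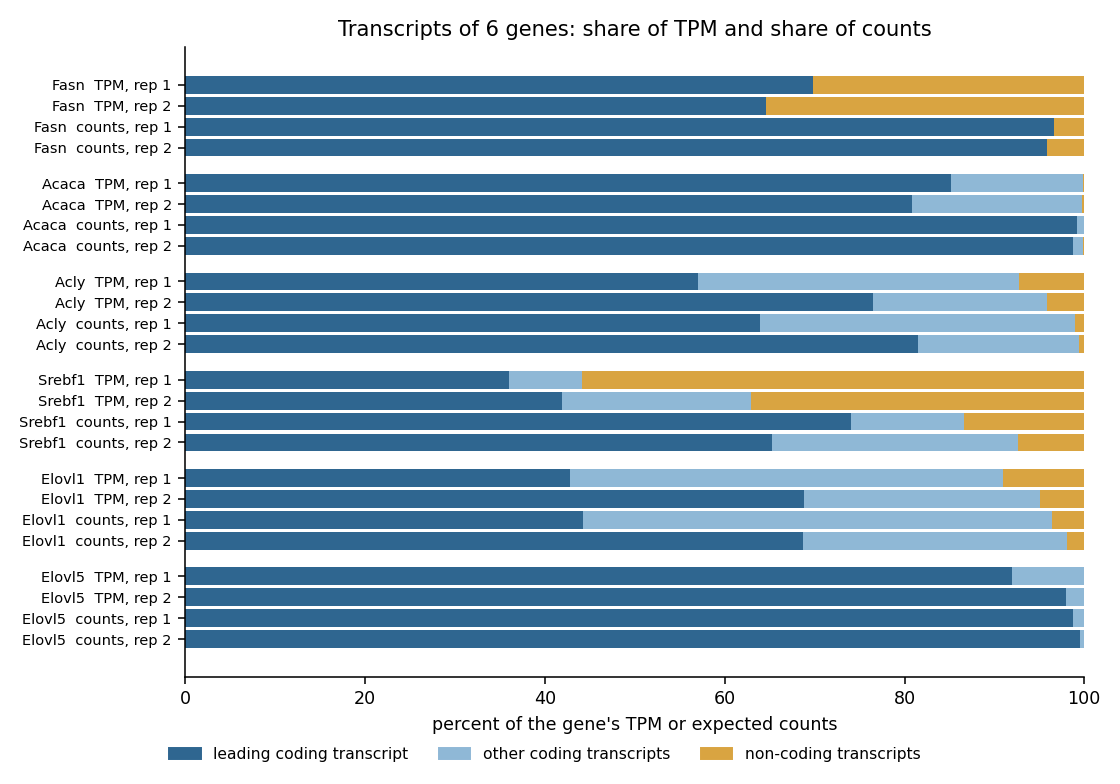
Share of each gene's TPM and of its expected counts, in percent, on its leading coding transcript, its other coding transcripts and its non-coding transcripts, with replicate 1 above replicate 2. For Srebf1 the leading transcript holds 36.04% and 41.94% of the TPM but 74.0% and 65.2% of the counts.

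The monounsaturated step was read from 2 of 4 Scd genes, and Scd2 was the higher. Scd2 (chr19:44293674-44306864, plus strand) had 209.78 TPM in replicate 1 and 273.67 TPM in replicate 2, a mean of 242 ± 45.2, the highest of the 10 genes. Scd1 (chr19:44394455-44407879, minus strand) had 130.19 and 155.04 TPM, a mean of 143 ± 17.6. In mice Scd1 is best known as the main form of liver and fat, and Scd2 as that of brain. Scd2 stood 1.61 times as high as Scd1 in replicate 1 and 1.77 times in replicate 2, and the ranges of the 2 genes did not overlap. Scd3 had 4.56 and 0 expected counts and Scd4 had 4.14 and 5.26, at most 0.09 TPM each. Of the TPM of the 4 genes, Scd2 held 61.7% and 63.8%, a mean of 62.7% ± 1.52 (SD, n = 2). As a share of counts it held 64.5% (Wilson 95% interval 63.9% to 65.1%) in replicate 1 and 66.6% (66.1% to 67.0%) in replicate 2. The intervals here cover counting error only.

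Scd1 and Scd2 are close copies, so their reads had to be told apart. The genes lie 87.6 kb apart on chromosome 19, with Scd4 (chr19:44333092-44346743) between them. Their coding sequences were identical at 962 of 1065 aligned bases, or 90.3%, with a longest shared run of 147 bases. The stretch with many differences is shown because reads there separate the 2 genes. Both lines give the coding strand, with the 24 bases that differ in capitals, at coding bases 79 to 138 of Scd1 and 88 to 147 of Scd2.
Scd1: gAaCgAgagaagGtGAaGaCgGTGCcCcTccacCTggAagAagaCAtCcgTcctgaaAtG
Scd2: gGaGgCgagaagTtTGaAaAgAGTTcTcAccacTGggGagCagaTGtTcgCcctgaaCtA
Over whole transcripts, 92.9% of the 36-base words of Scd1 and 94.1% of those of Scd2 occurred in no other gene. The deposited posterior SD of the count, a measure of how surely reads were assigned, was 0.181% and 0.162% of the Scd1 count in replicates 1 and 2, and 0.0999% and 0.0818% of the Scd2 count.

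Of the 7 elongase genes, Elovl1 and Elovl5 held most of the TPM. Elovl1 (chr4:118428093-118432953, plus strand), which lengthens saturated and monounsaturated very long chains, had 65.09 TPM in replicate 1 and 80.68 TPM in replicate 2, a mean of 72.9 ± 11.0. Elovl5 (chr9:77917364-77984519, plus strand), which lengthens polyunsaturated chains, had 47.90 and 46.75 TPM, a mean of 47.3 ± 0.813. Elovl6 (chr3:129532355-129638495, plus strand), which lengthens palmitate to stearate, had 3.25 and 3.66 TPM, a mean of 3.46 ± 0.290. Elovl5 thus stood 14.7 and 12.8 times as high as Elovl6 in replicates 1 and 2. Elovl7 lay just above Elovl6 at 4.66 and 4.71 TPM. Elovl2 and Elovl4 had 1 count in replicate 1 and 0 in replicate 2. Elovl3 had 0 counts in both, which allows up to 0.0596 TPM at 3 counts over both libraries.

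Elovl1 held 53.8% and 59.4% of the elongase TPM in replicates 1 and 2, and Elovl5 held 39.6% and 34.4%. By counts, which carry no length correction, Elovl5 was the larger at 49.2% and 45.4%, and Elovl1 held 32.9% and 37.7%. The coding sequences of Elovl1, Elovl5, Elovl6 and Elovl7 were 59.6% to 65.5% identical in pairs, and no pair shared a run over 13 bases. Elovl1 overlaps the end of Cdc20, a mitotic regulator gene on the other strand, by 53 bases, and 99.4% of its 36-base words were its own.

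Elovl1 was also spread over several transcripts, and the split differed between the libraries. Its leading transcript, 1340 bases long with a coding length of 837 bases, had 27.85 TPM in replicate 1 and 55.47 TPM in replicate 2. A transcript of 1248 bases with a coding length of 606 bases had 14.80 and 8.57 TPM. The first held 42.79% and 68.76% of the gene's TPM, and the second 22.74% and 10.63%. In contrast, the leading transcript of Elovl5 held 91.98% and 97.97% of the Elovl5 TPM, and Elovl6 has 1 annotated transcript.

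Fads2 was the lowest of the 10 genes and stood far below its neighbour Fads1. Fads2 (chr19:10062765-10101746, minus strand), which encodes the enzyme of the first desaturation step of polyunsaturated fatty acids, had 1.33 TPM in replicate 1 and 1.5 TPM in replicate 2, a mean of 1.42 ± 0.120. These values rest on 31.95 and 40 expected counts, with exact Poisson 95% intervals of 0.910 to 1.88 TPM and 1.07 to 2.04 TPM. In replicate 1 the interval reaches below the detection threshold. Fads1, which acts at a later step and lies in the same cluster 81.1 kb away, had 27.54 and 30.34 TPM. Fads1 stood 20.7 and 20.2 times as high as Fads2 in replicates 1 and 2, and held 93.8% of the Fads TPM in each. Fads3, 2.7 kb from Fads2, had 0.06 and 0.05 TPM, and Fads6 had 0.43 and 0.46 TPM.

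**Figure D3:**
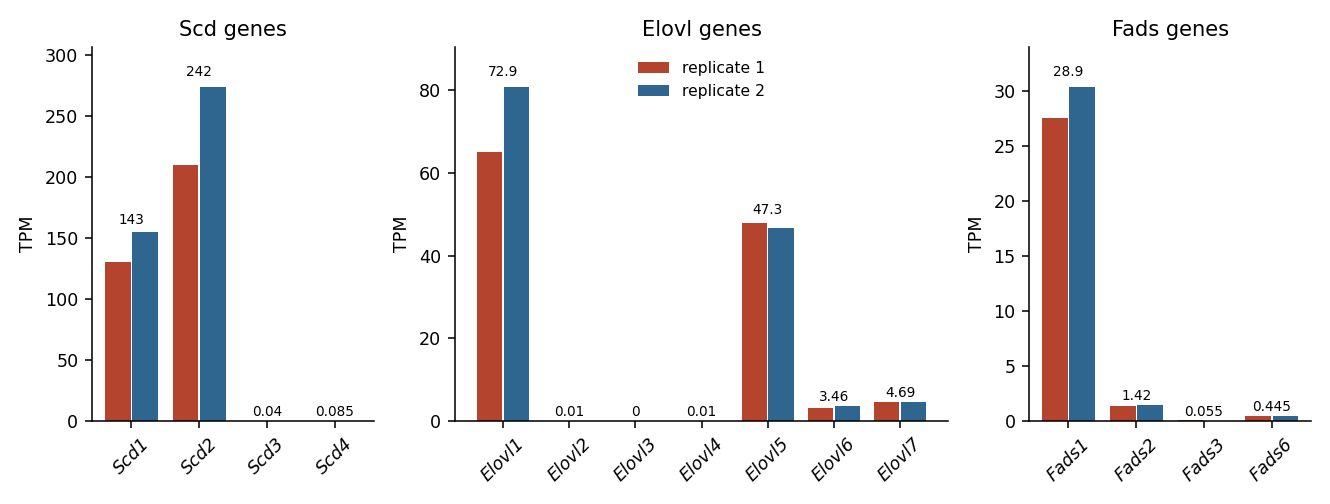
TPM of the Scd, Elovl and Fads genes in replicate 1 (left bars) and replicate 2 (right bars), on linear axes from 0, with the mean above each pair. Scd2 exceeds Scd1, Elovl1 and Elovl5 exceed the other elongases, and Fads1 at 27.54 and 30.34 TPM exceeds Fads2 at 1.33 and 1.5 TPM in both libraries.

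Srebf1 (chr11:60199089-60222581, minus strand) had 110.47 TPM in replicate 1 and 89.20 TPM in replicate 2, a mean of 99.8 ± 15. Less of this than of any of the other genes lay on coding transcripts. They held 48.7 TPM in replicate 1 and 56.1 TPM in replicate 2, or 44.1% and 62.9% of the total. Short non-coding transcripts made up the remainder, such as one of 367 bases with 20.61 and 5.08 TPM on 110.39 and 30.23 counts. The order of the libraries by gene TPM was opposite to that by counts, since Srebf1 had 3753.38 expected counts in replicate 1 and 4448.97 in replicate 2. The deposited effective length of the gene, a mean over its transcripts, was 2074 bases in replicate 1 and 2738 in replicate 2.

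Srebf1 has 2 starts that give proteins with different first residues, known as SREBP-1a and SREBP-1c. SREBP-1a has the longer activation domain and is known from dividing cell lines, and SREBP-1c is the main form of liver and fat. The coding starts of the transcript from each start are shown because they tell which form it encodes. The part that both share is in capitals.
Upstream transcript: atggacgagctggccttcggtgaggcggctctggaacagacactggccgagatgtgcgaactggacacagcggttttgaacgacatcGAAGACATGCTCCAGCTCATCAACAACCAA
Downstream transcript: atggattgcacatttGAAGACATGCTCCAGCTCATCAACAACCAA
The first 87 coding bases of the upstream transcript are its own, as in SREBP-1a, and the first 15 of the downstream transcript, as in SREBP-1c. The SREBP-1a transcript starts at position 60220604 and had 39.81 TPM in replicate 1 and 37.42 TPM in replicate 2. The SREBP-1c transcript starts at 60210465 and had 7.92 and 9.42 TPM. The SREBP-1a form was thus the larger, at 83.4% and 79.9% of the TPM of the 2 transcripts, a mean of 81.6% ± 2.49 (SD, n = 2).

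The split between these forms has limits. The model of the SREBP-1c transcript ends at 60200463, short of the 3′ end of the SREBP-1a transcript at 60199089, so reads from the shared last exon can be given only to models that reach it. Another coding transcript starts inside the gene at 60207188 and had 0.97 TPM in replicate 1 and 9.26 TPM in replicate 2. The posterior SD of its count was 74.92 and 168.38 reads, beside 64.25 and 678.54 expected counts. Which of the starts such reads come from was not tested. Srebf1 also overlaps Rai1 on the other strand by 109 bases, and 98.2% of its 36-base words were its own.

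The sequences before the 2 starts are shown because the forms arise there. Each line is 200 bases upstream of the RefSeq start nearest to that of the transcript, 5′ to 3′ on the minus strand of GRCm38.p6, at chr11:60220628-60220827 for the SREBP-1a transcript and chr11:60210472-60210671 for the SREBP-1c transcript. Capitals mark matches on either strand to 4 motifs. The GC box was searched as GGGCGG. The E-box, a site of factors such as SREBP and Myc, was searched as CACGTG. The sterol regulatory element core, a site of SREBP, was searched as TCACNCCAC. The last motif was the CCAAT box, searched by the letters of its name.
Before the SREBP-1a start: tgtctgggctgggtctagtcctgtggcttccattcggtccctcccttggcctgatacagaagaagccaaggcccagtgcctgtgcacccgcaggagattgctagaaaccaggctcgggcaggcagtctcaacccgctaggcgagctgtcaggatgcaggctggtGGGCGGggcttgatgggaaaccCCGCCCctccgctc
Before the SREBP-1c start: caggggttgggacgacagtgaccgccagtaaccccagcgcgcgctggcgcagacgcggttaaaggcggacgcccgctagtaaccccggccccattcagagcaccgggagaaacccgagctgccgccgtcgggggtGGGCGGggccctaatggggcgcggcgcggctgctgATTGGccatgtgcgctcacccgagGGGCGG
Matches to the GC box stand before both starts, and a CCAAT box before that of the SREBP-1c transcript. RefSeq also has a Srebf1 window farther upstream, at chr11:60222532-60222831, which holds a CCAAT box and is not printed. Over 300-base RefSeq windows around gene starts, 8 of the 10 genes had an entry, with 11 windows in all. The GC box occurred in 6 of the 11 windows, from 4 genes, and the CCAAT box in 6, from 5 genes. The E-box occurred in 1 window, that of Elovl5, and the sterol element core in 0. Of all 32851 windows, 35.7% held the GC box, 37.4% the CCAAT box, 7.2% the E-box and 1.2% the sterol element core. Only these exact letters were searched, so the search cannot tell whether sites with other letters are present, in the printed lines or elsewhere. No 2 matches overlap in the printed lines, and a match describes letters only.

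Ordered by gene TPM, the 10 genes ran from Scd2 through Fasn, Acly, Scd1, Srebf1, Elovl1, Elovl5, Acaca and Elovl6 to Fads2. Neighbours in this order did not overlap in their 2 values, except Acly with Scd1 and Elovl5 with Acaca, and only the last pair changed places between the libraries. By coding transcripts alone, Fasn moved below Acly and Scd1 with a mean of 125 TPM, and Srebf1 below Elovl1 with 52.4 TPM. The positions of Elovl6 and Fads2 at the end were the same by both.

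All 10 genes had a lower scaled count in replicate 1 than in replicate 2. The log2 ratio of replicate 1 over replicate 2 had a median of -0.17, against 0.00 over 15340 genes tested. By the two-sided exact binomial test with Benjamini-Hochberg adjustment over all genes tested, 7 of the 10 were lower in replicate 1 and 0 higher. The same test called 30.6% of all genes, 14.7% lower and 15.9% higher in replicate 1. Among the 10100 genes with a mean of 100 counts or more, it called 38.9%. It compares the libraries, not conditions, and holds counting error only. The negative binomial exact test of edgeR used a common dispersion estimated from both libraries as 1 group. It called 2.54% of all genes and 0 of the 10 genes, and none of the 10 had an unadjusted p under 0.05. That dispersion holds the differences under test, so the 0 does not show that the libraries were alike.

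The differences were small. Scd2 had 18603.86 expected counts in replicate 1 and 26982.91 in replicate 2, a log2 ratio of -0.40 (exact binomial test, adjusted p = 6.5e-186). Elovl1 followed with 1340.89 and 1912.24 counts and a log2 ratio of -0.37 (exact binomial test, adjusted p = 4.1e-12). Scd1 had 10229.44 and 13543.83 counts and a log2 ratio of -0.27 (exact binomial test, adjusted p = 3.2e-44). Fasn, Acly, Acaca and Srebf1 also passed, with log2 ratios from -0.17 to -0.11. Elovl6 (-0.19), Fads2 (-0.18) and Elovl5 (-0.06) did not pass, with adjusted p of 0.21, 0.80 and 0.34 in the exact binomial test. By gene TPM 8 of the 10 were lower in replicate 1, and Srebf1 turned to a log2 ratio of 0.31.

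Other features of the libraries moved with this difference. The 5 B cell markers named above were also lower in replicate 1, with a median log2 ratio of -0.18, and each passed the exact binomial test. Long transcripts were lower in replicate 1 in general. Among genes with a mean of 100 counts or more, the 1470 with transcripts of 4500 bases or longer had a median log2 ratio of -0.11, and 36.3% of them were called lower in replicate 1. The 2558 genes under 1500 bases had a median of 0.07, and 16.2% were called lower. Fasn, Acaca, Scd1, Scd2 and Elovl6 are in the long class and Elovl1 is in the short one. Scd2 lay at percentile 2.9 of the log2 ratios of the 10100 genes at that count, Elovl1 at 3.5 and Scd1 at 8.7. The part of transcript length, or of whatever lowered the B cell markers, in the difference was not tested.

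**Figure D4:**
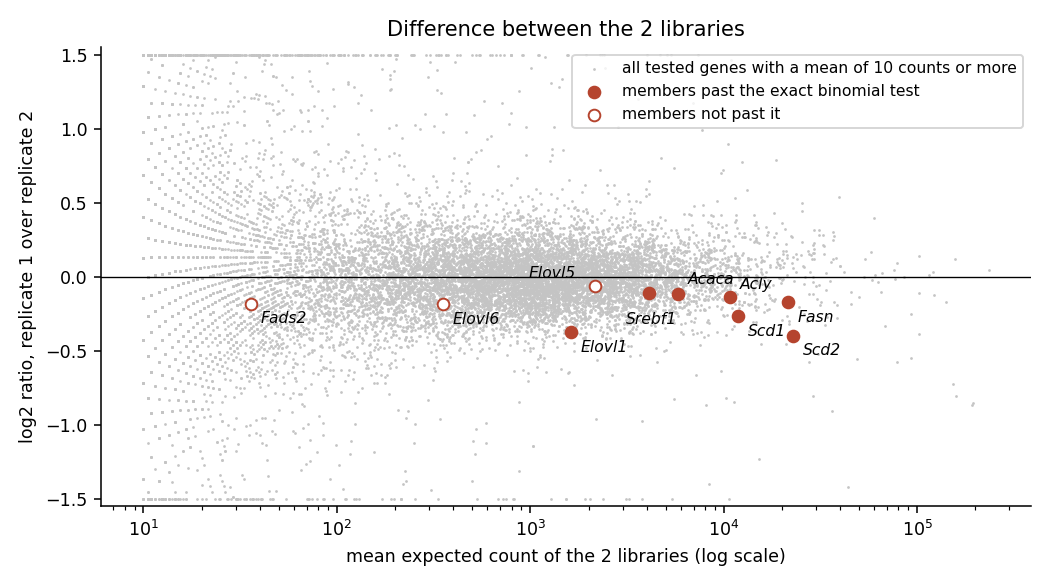
Log2 ratio of scaled counts, replicate 1 over replicate 2, against the mean expected count on a log axis; ratios beyond 1.5 are drawn at the edge. The 10 genes are marked, filled where they passed the exact binomial test, and all lie below 0, between -0.40 and -0.06.

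The genes around the pathway were mostly expressed too. Of 92 further genes in 10 lists, 73 were detected. Of the 77 that could be tested, 14 were higher in replicate 1 by the exact binomial test and 10 lower, against 15.9% higher and 14.7% lower over all genes tested. Their share called was thus near that of all genes. By the negative binomial exact test 1 was called, Cpt1b.

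Supply of acetyl-CoA and NADPH was covered by 6 of 7 genes, with the mitochondrial acetyl-CoA synthetase Acss1 missing at 0.34 and 0.56 TPM. Pgd and G6pdx, enzymes of the pentose phosphate pathway that yield NADPH, averaged 199 and 49.9 TPM, and malic enzyme Me1 averaged 30.1 TPM. Slc25a1, which carries citrate out of mitochondria to Acly, averaged 95.9 TPM, of which 60.26 and 58.85 TPM in replicates 1 and 2 lay on coding transcripts. Idh1 and the cytosolic acetyl-CoA synthetase Acss2 were lower, at 8.38 and 2.38 TPM. Of 4 further genes listed beside the carboxylase and synthase, 3 were detected, Mid1ip1, Aacs and the paralog Acacb. Coding transcripts of Acacb held only 0.63 and 0.44 TPM in replicates 1 and 2. Mid1ip1, which promotes assembly of the carboxylase, averaged 27.3 TPM, while its relative Thrsp had 0 counts in both libraries.

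The shared steps of elongation and desaturation were well covered. Of 10 other elongation genes 6 were detected, with Tecr, the reductase of the last step, at a mean of 127 TPM and the ketoacyl reductase Hsd17b12 at 84.5 TPM. The dehydratase genes Hacd2 and Hacd3 had between 27.17 and 32.79 TPM, whereas Hacd4 was not detected. Of 8 other desaturation genes 4 were detected, and Cyb5a, Cyb5b and Cyb5r3, which pass electrons to the desaturases, averaged 87.2, 78.5 and 62.9 TPM. Coding transcripts of Cyb5a held only 45.1 and 37.86 TPM in replicates 1 and 2, below the other members of this trio. All 6 genes of the separate mitochondrial route were detected, led by its acyl carrier protein Ndufab1, also a subunit of complex I, at 254 TPM, of which 34.98 and 102.85 TPM in replicates 1 and 2 lay on coding transcripts. The other 5 averaged between 6.05 TPM (Oxsm) and 58.2 TPM (Mecr).

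Of the control genes, 11 of 13 were detected. Srebf2, the relative of Srebf1 known for cholesterol synthesis, had 118.99 TPM in replicate 1 and 136.54 TPM in replicate 2. It stood 1.08 and 1.53 times as high as Srebf1 by gene TPM and 2.44 and 2.43 times by coding transcripts. Insig1, which holds SREBP in the endoplasmic reticulum, averaged 66.1 TPM, and the escort Scap 22.5 TPM. The proteases Mbtps1 and Mbtps2, which release SREBP, averaged 25.6 and 20.2 TPM. Other activators of these genes were detected only in part. The liver X receptor gene Nr1h2 averaged 30.4 TPM, while Nr1h3 had 0.15 TPM in both libraries. Mlxipl, which encodes the glucose-responsive factor ChREBP, had 1 and 0 counts, although its partner Mlx averaged 35.3 TPM.

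Genes that use fatty acids were also expressed. Of 8 acyl-CoA synthetases and thioesterases 7 were detected, led by Acsl6 at 162 TPM and Acsl5 at 134 TPM, and Acot1 had 0 counts. Of 12 glycerolipid genes 11 were detected, and Gpat3 was missed at 0.92 and 0.91 TPM. By gene TPM they were led by Lpcat3, which places polyunsaturated chains into phospholipids, at 74.4 TPM and Agpat3 at 50.6 TPM. Over coding transcripts Lpcat3 had 49.23 TPM in replicate 1 and 46.96 TPM in replicate 2, below Agpat3 at 52.58 and 48.11 TPM. Dgat1 and Dgat2, which make triglyceride, averaged 10.9 and 1.14 TPM, and only 2.89 and 3.51 TPM of Dgat1 lay on coding transcripts.

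Uptake and storage split into a few high genes and many at or near 0, with 8 of 12 detected. Cd36, a scavenger receptor that takes up long-chain fatty acids, had 270.09 TPM in replicate 1 and 257.48 TPM in replicate 2. Cd36 stood above Scd2 in replicate 1 and below it in replicate 2. Fabp5, a fatty acid carrier protein, had 149.96 and 119.80 TPM, while its adipocyte relative Fabp4 had 0 counts in both libraries. Lpl, the lipase that frees fatty acids from lipoproteins, had 2 counts in each, and the adipocyte droplet protein Plin1 had 1 count in each. Plin3 and Plin2, found on droplets of many cell types, had between 16.76 and 23.13 TPM. The transporter Slc27a2 had 0 counts in both libraries. Of 12 mitochondrial oxidation genes 11 were detected, led by Acadm at 119 TPM and Hadha at 91.6 TPM, although coding transcripts of Hadha held only 12.37 and 15.62 TPM. The carnitine transferase Cpt1a, which admits fatty acids to mitochondria, stood at 1.73 and 1.87 TPM, below its relative Cpt1c at 7.58 and 7.46 TPM. Cpt1b, the muscle form, had 0.33 TPM in replicate 1 and 1.53 TPM in replicate 2, on 3.22 and 71 expected counts. The posterior SD of its count was 50.2% and 17.5%, so its value is uncertain.

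**Figure D5:**
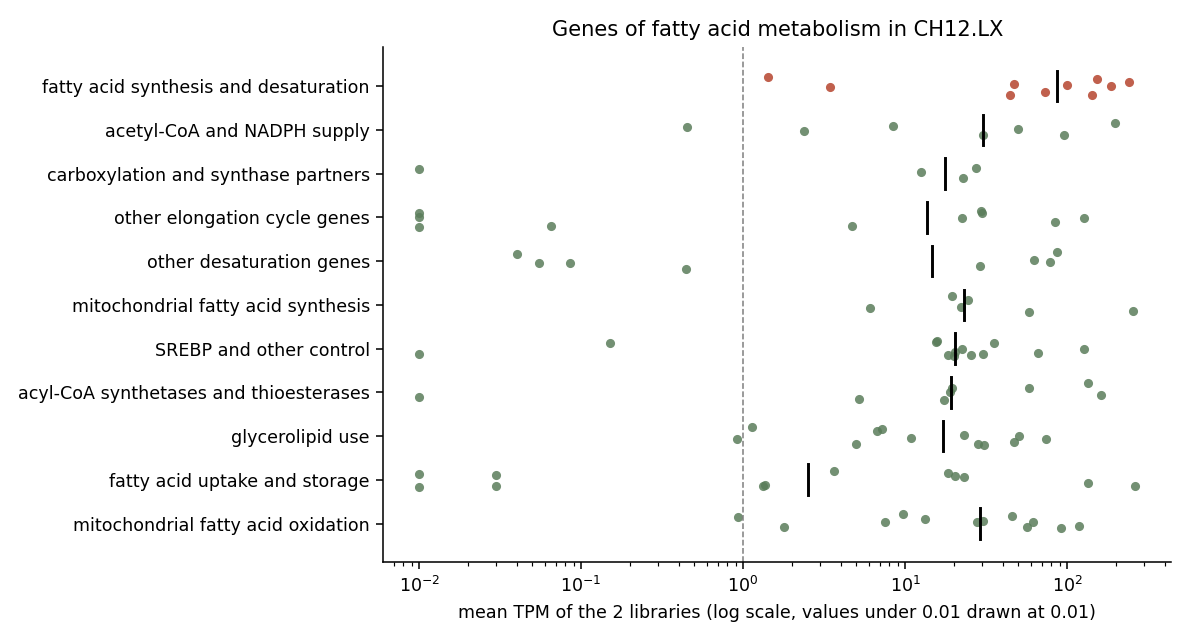
Mean TPM of the 2 libraries for each gene of the pathway and of the 10 lists around it, on a log axis, with a black bar at the median of each list and a dashed line at 1 TPM. The 10 synthesis and desaturation genes have a median of 86.4 TPM, and the uptake and storage list one of 2.51 TPM.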

How the data were processed

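Expected counts, TPM and FPKM per gene and transcript, and each transcript's percent of its gene's expression, were deposited by the authors from transcriptome alignments to mm10 with GENCODE M4, per the deposited notes. Expected counts can hold fractions of reads that match several genes. The sources used here name no aligner or quantification tool. Names, transcript types and coordinates came from GENCODE M21 on GRCm38, for 42462 of 43346 identifiers (98.0%), and promoter windows from RefSeq on GRCm38.p6. A further 26248 entries that name no gene held 0.0426% and 0.0539% of the counts in replicates 1 and 2 and stayed out of tests.

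A gene was detected at 1 TPM or more in both libraries. Rounded counts of 15340 genes with at least 10 summed counts went into an exact binomial test (two-sided) against TMM effective library sizes (edgeR 4.0.16), adjusted by Benjamini-Hochberg at 0.05. It was tested on data simulated with counting error only. The log2 ratio used scaled counts with a pseudocount of 0.5. Counts of 0 were bounded with 3 counts. Alternatives were DESeq2 1.42.0 size factors, library totals, no filter, posterior means, other thresholds and the negative binomial exact test. TPM was also rescaled to the entries with an Ensembl identifier. The members, the lists and the rule for named genes (all 10 members, then the 2 to 4 highest and the undetected genes of each list) were chosen with earlier results of these data known. A marker gene of the chosen lists is not reported here. The further list genes given here were named after their values were seen: Idh1, Acss2, Elovl7, Oxsm, Scap, Mbtps1, Mbtps2, Dgat1, Dgat2, Plin2, Cpt1a and Cpt1c.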

Additional observations from a re-analysis of the deposited data

How the results depend on the processing

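All 10 genes were detected at 0.5 TPM, 9 at 1 FPKM and 8 at 5 TPM. Uptake and storage genes fell to 5 at 5 TPM, myeloid markers to 0 at 5 TPM and at 1 FPKM, and T cell markers to 0 at both but 2 at 0.5 TPM. By expected counts in place of TPM, Scd2 held 65.5% of the Scd genes, Elovl1 35.3% of the elongases and Acaca 90.6% of both carboxylases. Over coding transcripts alone, a choice made after seeing the data, Acaca held 98.8%. The negative binomial exact test called 0 of the 10 genes and 389 of all genes. By the ratio of gene TPM, also chosen after seeing the data, Srebf1 turned to 0.31. The 10 ratios kept their direction and side of the threshold with DESeq2 size factors, library totals, no filter and posterior mean counts. By posterior mean TPM, Acly averaged 146 TPM and Elovl5 45.3 TPM, each outside the spread of the deposited TPM. With TPM rescaled to entries with an Ensembl identifier, Elovl5 averaged 48.3 TPM, also outside that spread. Without replicate 1, 2 T cell markers, 12 oxidation genes and 74 of the 92 pathway genes were detected. Without replicate 2 no count of detected genes changed. With 2 libraries a mean moves by less than the SD by construction, so this says nothing about how stable the levels are. No paired analysis was possible because both libraries belong to 1 group. With 2 libraries, counts limit the precision for Fads2 most.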
